A study of Homo sapiens with 2 samples.

Results

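The 518 isolated SOX4 peaks described here are those with no other peak within 100 kb on either side, on chromosomes 1 to 6, 8, 10 to 19, 21 and 22. They were chosen by the measured positions of the peaks, not by their scores, from a list of 4201 peaks in the human genome build hg19, and make up 12.3% of it. On the same 19 chromosomes they are 19.8% of 2612 peaks. A chromosome's first or last peak counted as isolated if its only neighbour lay beyond 100 kb. Chromosomes 7, 9, 20, X and Y were left out by the rule.

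The peaks come from chromatin immunoprecipitation with sequencing (ChIP-seq), which recovers DNA fragments bound by a protein with an antibody and counts them along the genome. In 1 library the human glioblastoma line LN229 had been transfected with a Flag-SOX4-HA plasmid. In the other, the negative control, LN229 had been transfected with a GFP-Flag-HA plasmid. Both received a plasmid, and anti-Flag antibody was used on both, so the tagged protein was added to the cells and the antibody did not see the cells' own SOX4. The title and sample labels, followed here, give glioblastoma, whereas the design text has prostate. Each group had 1 library, no peak list of the GFP library was analysed here, and no value below has a replicate error or tests SOX4 against GFP.

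SOX4 is a transcription factor of the SOX family, which contacts the minor groove of DNA through an HMG box and bends it. It acts in the development of the nervous system and other organs and is often abundant in tumours, glioblastoma among them. Factors that bind short sequence elements usually give narrow peaks. No hg19 sequence or annotation was used, so peaks are given by position, no sequence is printed, and no peak is assigned to a gene except SOX4 itself, whose place is general knowledge.

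The score that the authors gave each peak could be read on a known scale. Among the peaks under 3100, each isolated peak's score equalled minus 10 times the log10 of a Poisson tail probability for a whole number of reads in the width of the peak, at 1 rate of 5.73 reads per kb. All 511 such isolated peaks matched within 0.01, as did 4095 of all 4098, where neighbouring whole numbers lie a median of 6.76 score units apart. The 3 that did not match were 280 to 370 bp wide and are not isolated peaks of this set. A rate fitted on the isolated peaks alone was also 5.73. For the matched peaks the score therefore holds a read count and a width only, with no rate of the peak's own, whether from its surroundings or from the GFP library. The sources used here do not give whether that library entered another step of peak calling. The count below is the whole number whose strict tail (more reads than the count) gives the score, and it would be 1 higher if the tail was taken to include the count. Intervals on counts are exact 95% Poisson intervals and cover counting error only, and reads copied in amplification are not independent.

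**Figure D1:**
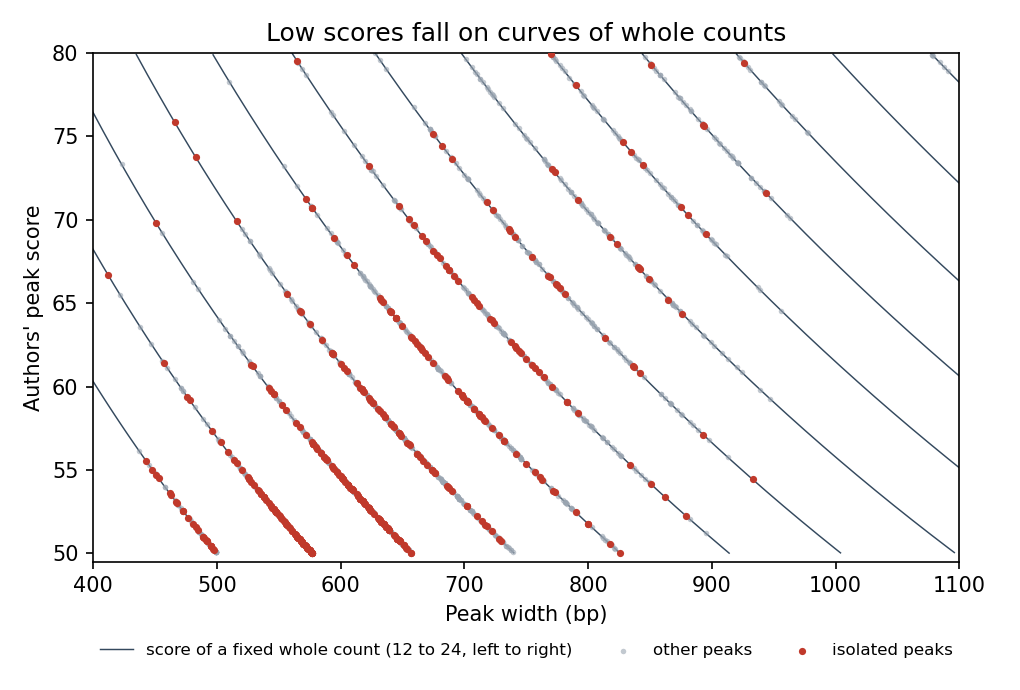
Authors' peak score (y axis) against peak width in bp (x axis) for scores under 80, with isolated peaks in red and other peaks in grey. Each dark curve is the score of a fixed whole count from 12 to 24 reads at 5.73 reads per kb. The isolated peaks lie on the curves.

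Most isolated peaks were narrow and weak. Their median width was 642 bp (quartiles 575 and 746 bp), and their median score was 57.7 (quartiles 52.6 and 68.5), near the lowest score of the list, 50.01. On the Poisson scale a score of 50 is a tail probability of 1e-05. Among the 511 under 3100, the implied count had a median of 15 reads (quartiles 14 and 17), which was a median of 4.12 times the common rate. Scores under 60 were held by 303 isolated peaks (58.5%, exact Clopper-Pearson 95% interval 54.1 to 62.8%), and these rested on 12 to 18 reads each. A further 128 scored from 60 to under 80, with 13 to 24 reads, and 29 scored from 80 to under 100, with 17 to 27 reads. For the peaks under 60, a difference of a few reads moves a peak across the lower limit of the list.

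The other 2094 peaks of the same chromosomes had a median width of 1058 bp, a median score of 105 and a median implied count of 27 reads. Scores under 60 made up 20.2% of them (18.5 to 21.9%). Of all peaks on these chromosomes, 41.8% of those scoring under 60 were isolated (38.2 to 45.5%), 10.5% of those from 80 to under 100, 6.48% of those from 100 to under 200 (4.50 to 8.98%) and 2.92% of those from 200 to under 1000 (1.61 to 4.86%). At 1000 or more 11 of 161 were isolated (6.83%, 3.46 to 11.9%). Peaks are not replicates, so no test was made.

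**Figure D2:**
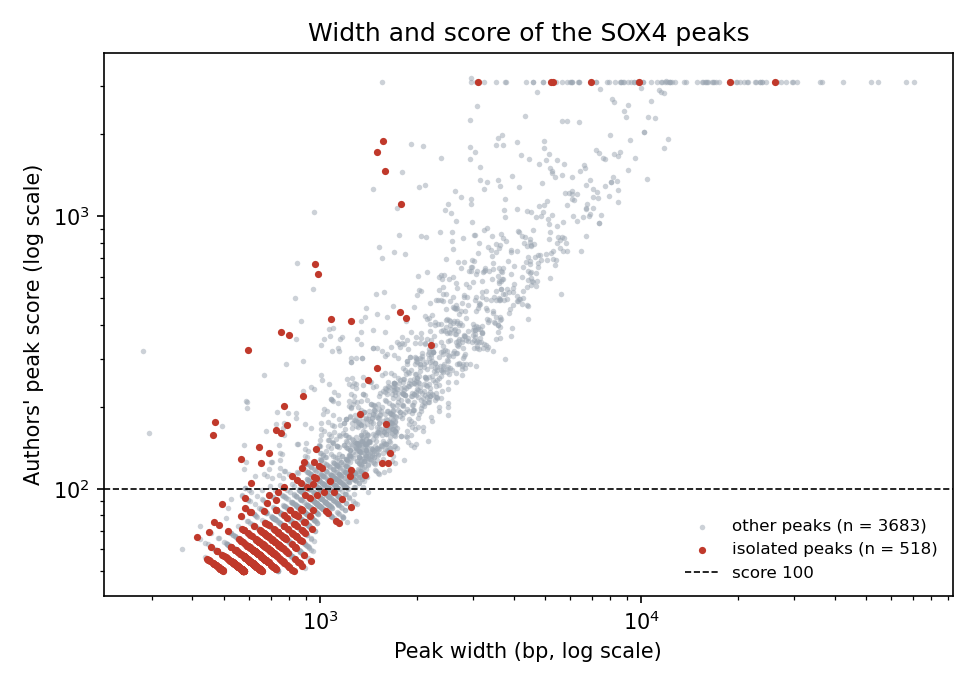
Authors' peak score against peak width in bp, both on log scales, for 518 isolated peaks (red) and 3683 other peaks (grey), with a dashed line at score 100. The grey peaks are from all chromosomes. Most red points sit at the lower left, a few lie above the main band of grey points, and 7 lie at 3100.

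A score of 100 or more marked 58 isolated peaks as candidate single SOX4 sites, 11.2% of the set (8.61 to 14.2%), against 39.7% of the whole list. That name rests on score and isolation, with no limit on width, which ran from 463 to 26134 bp. Whether any candidate is a single site was not tested. Among the non-isolated peaks of the same chromosomes the share was 52.1%. The candidates split by score into 33 from 100 to under 200, with 21 to 45 reads, 14 from 200 to under 1000, with 35 to 83 reads, and 11 of 1000 or more. They were spread over 17 chromosomes. The number was 23 when no other peak was allowed within 1 Mb, and 25 with a score of at least 200.

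The score threshold cut through a continuous range. Just inside it were chr6:157731419-157732191 (score 101, 23 reads), chr8:145180189-145181095 (102, 25 reads) and chr1:240347919-240348866 (105, 26 reads). Just outside were chr2:240565994-240566730 (97.8, 22 reads), chr22:24672795-24673894 (97.3, 27 reads) and chr19:15778086-15779110 (97.3, 26 reads). The inner and outer peaks overlap in reads, because a wider peak needs more of them for the same score. At the distance threshold, the nearest members were chr17:45514523-45515277, 101 kb from its neighbour, and the pair chr19:15999185-15999955 and chr19:16101763-16102554, 102 kb apart. Their scores were 67.8, 73.02 and 71.2. The nearest peaks left out were the pair chr1:247747541-247748391 and chr1:247848286-247848878, 99.9 kb apart, and chr17:21231765-21232562, 98.1 kb from the next. These scored 66.3, 55.2 and 84.2.

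Among the isolated peaks under 3100, the densest in reads lay in SOX4, the gene of the precipitated factor. It spans chr6:21594762-21596330, is 1569 bp wide and scored 1894. Its score implies 200 reads (173 to 230) where the common rate gives 8.99, which is 22.3 times that rate (19.3 to 25.6) and the highest such value of all 4098 peaks under 3100 in the list. The cells carried a SOX4 plasmid, and reads from the plasmid and from the genomic gene cannot be told apart in this list.

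Another 3 isolated peaks scored from 1000 to under 3100, all under 1800 bp wide. The peak chr13:19711351-19712850, the first of its chromosome, implied 184 reads in 1500 bp, or 21.4 times the common rate (18.4 to 24.7), an interval that overlaps that of the SOX4 peak. The peak chr4:80273386-80274973 implied 168 reads in 1588 bp, or 18.5 times (15.8 to 21.5). The peak chr11:3674698-3676486 implied 145 reads in 1789 bp, or 14.1 times (11.9 to 16.6), and its interval lies below that of the SOX4 peak. In these 4 peaks, 145 or more reads fell in a stretch for which the common rate gives 8.59 to 10.2.

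The remaining 7 isolated peaks of 1000 or more all held the score 3100. That value is shared by 100 peaks of the list and 3 peaks exceed it, so it cannot be turned into a count. If it stands for a score of at least 3100, the counts are lower bounds. The narrowest, chr4:68263910-68267014, was 3105 bp wide and then held at least 349 reads, at least 19.6 times the common rate. The peaks chr8:43092510-43097747 and chr1:224199025-224204333, of 5238 and 5309 bp, held at least 416 and 418 reads, at least 13.9 and 13.7 times that rate. The peaks chr6:58773298-58780270 and chr18:18510901-18520763 held at least 462 and 528 reads in 6973 and 9863 bp. The widest, chr17:22244120-22262967 (18848 bp) and chr12:34829966-34856099 (26134 bp), held at least 696 and 811 reads, at least 6.45 and 5.42 times the common rate.

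A stretch without peaks of close to the same length began or ended at 4 of these 7. After the chromosome 17 peak it ran for 3.00 Mb, after the chromosome 12 peak for 3.02 Mb, after the chromosome 6 peak for 3.12 Mb, and before the chromosome 18 peak for 3.10 Mb. By general knowledge of hg19 these 4 peaks lie beside centromeres, which that build holds as unsequenced gaps, where no peak can be called. Isolation on that side cannot be told apart from the gap. On their other sides the nearest peaks were 337 kb, 165 kb, 1.21 Mb and 17.7 Mb away. No gap or repeat annotation was used, so whether the same limit holds for other isolated peaks was not tested. The chromosome 8 peak was 1 of 2 candidates within 1 Mb of a dense group of at least 10 peaks chained at 100 kb. The other was chr5:46093873-46095503 (score 124).

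Below a score of 1000, 6 more isolated peaks held at least 10 times the common rate. The peak chr3:196625282-196626244 implied 83 reads in 963 bp, or 15.05 times (11.98 to 18.7). The peak chr4:179150607-179151591 implied 79 reads in 985 bp, or 14.0 times (11.1 to 17.4). Chromosome 10 had chr10:130262625-130263220, with 43 reads in 596 bp (12.6 times, 9.12 to 16.97), and chr10:98560970-98561726, with 52 reads in 757 bp (11.99 times, 8.96 to 15.7). The peaks chr12:132482906-132483703 and chr19:7515015-7516097 held 52 and 64 reads, 11.4 times (8.50 to 14.9) and 10.3 times (7.94 to 13.2). These 6 were 596 to 1083 bp wide, narrower than each of the 4 strongest peaks under 3100, and their intervals overlap one another.

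With those 4, 10 of the 511 isolated peaks under 3100 held at least 10 times the common rate (1.96%, 0.942 to 3.57%). Among the 3587 other peaks under 3100, on all chromosomes, it was 1.62%. At 6 times or more there were 29 isolated peaks (5.68%, 3.83 to 8.05%) against 12.6% of those others (11.6 to 13.8%). The others include isolated peaks of the excluded chromosomes. Among the non-isolated peaks of the same 19 chromosomes, 1.28% reached 10 times (0.840 to 1.87%) and 13.6% reached 6 times (12.2 to 15.2%). The limits of 10 and 6 times were chosen after the values were seen.

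Width and score rise together in this list, so each candidate was also ranked among all other peaks within 20% of its width. Of the 58 candidates, 35 scored above 90% of the peaks of like width (60.3%, 46.6 to 73.0%), against 14.2% of the other peaks of score 100 or more. Here and below, these other peaks are from all chromosomes, with isolated peaks of the excluded chromosomes among them. Narrow peaks rank high by the score threshold alone: from 400 to under 800 bp, all 15 candidates and all 36 other peaks of 100 or more passed. From 800 to under 1200 bp, 10 of 18 candidates passed (55.6%, 30.8 to 78.5%), against 75 of 298 others (25.2%, 20.3 to 30.5%). From 1200 to under 2000 bp, 9 of 17 passed (52.9%, 27.8 to 77.0%), against 58 of 571 (10.2%, 7.80 to 12.9%). At 2000 bp or more 1 of 8 passed (12.5%, 0.316 to 52.7%), against 58 of 704 (8.24%), and the 7 candidates tied at 3100 are in this class. Rank still depends on width inside a band. A candidate of 817 bp and score 111 exceeded 94.0% of its width class, and one of 1072 bp and score 107 exceeded 62.1%. The widths of candidates and others within each band were not compared.

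The ranks of the candidates left a gap between 94.2% and 97.4%. Above it were 24 peaks on 13 chromosomes, with a median width of 782 bp and 6.01 to 22.3 times the common rate where it could be computed. Of the other peaks of score 100 or more on all chromosomes, 83 of 1611 ranked above 97% (5.15%, 4.12 to 6.35%). From 400 to under 800 bp it was 14 of 15 candidates and 32 of 36 others, so the score threshold largely sets these ranks there. Of the 24, chromosomes 1 and 10 held 4 each, and chromosome 4 held 3. All 4 candidates of chromosome 10 were among the 24, including chr10:20058314-20059040, with 30 reads in 727 bp (7.20 times, 4.86 to 10.3). These 4 were 596 to 757 bp wide, in the width range where 32 of 36 other peaks of 100 or more also ranked above 97%. The highest ranks were those of chr10:130262625-130263220, first of 1507 peaks of like width, and chr1:4363063-4363533, first of 347. The latter was 471 bp wide and implied 26 reads, 9.64 times the common rate (6.30 to 14.1). At the other end, 9 candidates scored above fewer than 50% of the peaks of like width. The 2 widest of them were tied at 3100 with every peak of their width class, and the tie alone sets their rank at 0%. The rest had 4.07 to 4.89 times the common rate, close to the median of all isolated peaks. The peak chr5:46093873-46095503 was the lowest of these, with 38 reads in 1631 bp.

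**Figure D3:**
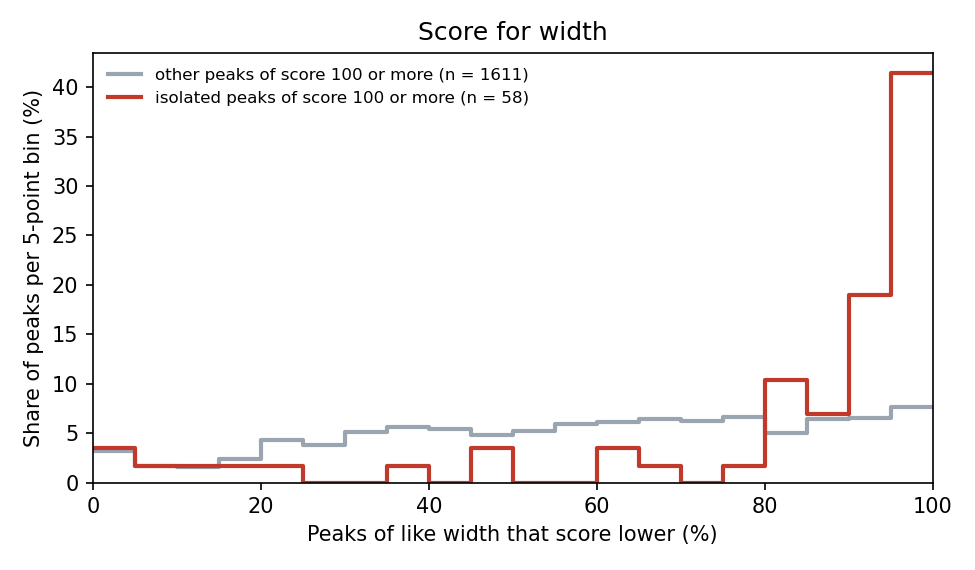
Share of peaks in each bin of 5 percentage points (y axis, %) against the share of peaks of like width that score lower (x axis, %), for 58 isolated peaks of score 100 or more (red) and 1611 other peaks of score 100 or more (grey). The grey peaks are from all chromosomes. In the bin above 95% stand 41.4% of the isolated and 7.64% of the other peaks.

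Isolation reached far beyond the limit of the rule for many peaks and was not greater for the candidates. The nearest other peak lay a median of 0.795 Mb away (quartiles 0.333 and 2.21 Mb) for the whole set, 0.763 Mb for the 58 candidates and 0.807 Mb for the 460 peaks under 100. More than 1 Mb separated 219 of the 518 from any other peak, and 23 of the 58. Farthest of all was chr13:113526974-113527865 (score 125, 28 reads), the last of its chromosome, at 49.9 Mb. It was followed among the candidates by the peak in SOX4, at 14.5 Mb. The peak chr4:80273386-80274973 was 12.01 Mb from its nearest neighbour, which was the chromosome 4 peak of score 3100. Then came chr10:20058314-20059040 (8.65 Mb), chr10:98560970-98561726 (8.53 Mb), chr19:7515015-7516097 (8.26 Mb, the first peak of its chromosome), chr18:50318916-50319705 (5.76 Mb) and chr2:109815492-109816737 (5.08 Mb). The last of these implied 67 reads, 9.39 times the common rate (7.28 to 11.9). The 2 next in distance, chr19:57256061-57257029 and chr16:90182982-90184488, at 4.70 and 4.18 Mb, were each the last peak of their chromosome. The nearest peak to a candidate was itself isolated in 44 of 58 cases, scored under 60 in 26 and 100 or more in 15. These counts were not made for the 460 peaks under 100, so they have no base to be read against.

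**Figure D4:**
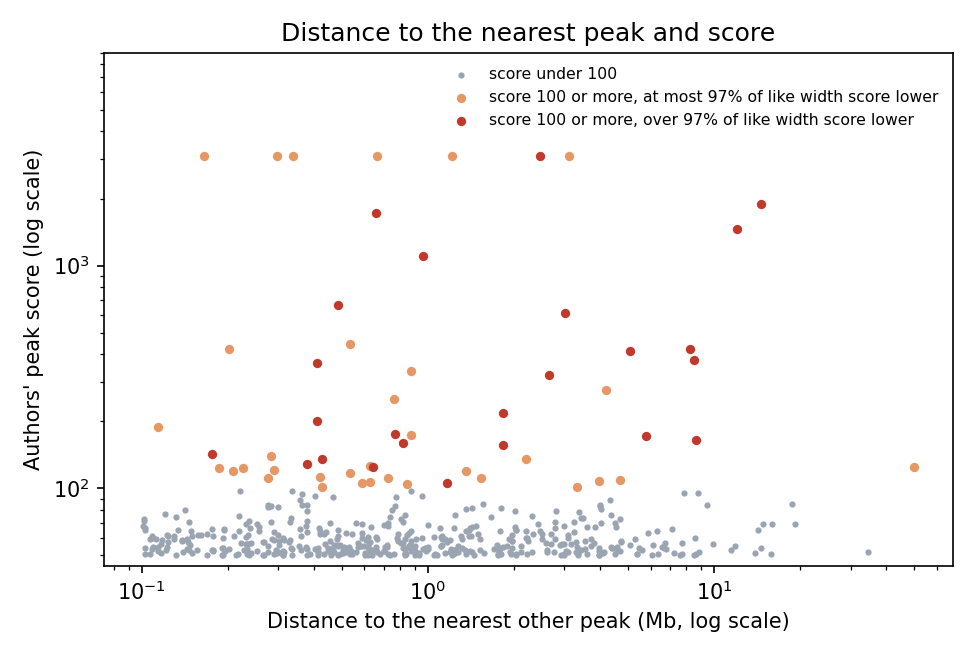
Authors' peak score against the distance to the nearest other peak in Mb, both on log scales, for the 518 isolated peaks. Grey points score under 100, and dark red points are the 24 candidates above 97% of the peaks of like width. Candidates are spread over the whole range of distances.

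The chromosomes carried very different numbers of isolated peaks. Chromosomes 1, 5 and 2 held 112, 75 and 63, together 48.3% of the set. Per Mb up to the last peak, chromosome 1 had 0.449, chromosome 5 had 0.421, chromosome 22 had 0.411 and chromosome 17 had 0.382, against a median of 0.168 over the 19 chromosomes and a lowest value of 0.0655 on chromosome 14. Unsequenced gaps count in these lengths. The share of a chromosome's peaks that were isolated also varied, for example 8 of 230 on chromosome 21 (3.48%, 1.51 to 6.74%), 63 of 222 on chromosome 2 (28.4%, 22.5 to 34.8%) and 75 of 160 on chromosome 5 (46.9%, 38.95 to 54.9%). Of all 2612 peaks on these chromosomes 19.8% were isolated. Chromosome 1, with the most isolated peaks, had 112 of 575 (19.5%, 16.3 to 22.96%), close to that share. Chromosome 1 also had the most peaks of the 19 and is itself part of that share. Why its number of isolated peaks was high was not tested. Of the other chromosomes dense per Mb, chromosome 22 had 21 of 146 (14.4%, 9.13 to 21.1%) and chromosome 17 had 31 of 111 (27.9%, 19.8 to 37.2%).

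The chromosomes with the most isolated peaks were not always those with the most candidates. Chromosome 1 had 16 candidates among its 112 isolated peaks, but chromosome 5 had 2 of 75 and chromosome 2 had 2 of 63. Chromosomes 4 and 10, with 15 and 12 isolated peaks, had 4 candidates each. Chromosome 8 had 6 of 38 and chromosome 12 had 5 of 24. None of the 19 on chromosome 15 or the 8 on chromosome 21 reached 100, where the highest were chr15:25516975-25517900 at 79.4 and chr21:44134327-44135049 at 70.6. The highest isolated peaks of chromosomes 5, 14, 22 and 16 scored 124, 124, 219 and 278, the chromosome 14 peak being chr14:19351453-19353004 and the chromosome 22 peak chr22:51081744-51082627. Leaving out any 1 chromosome kept the share of candidates between 10.3% (without chromosome 1) and 12.6% (without chromosome 5).

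**Figure D5:**
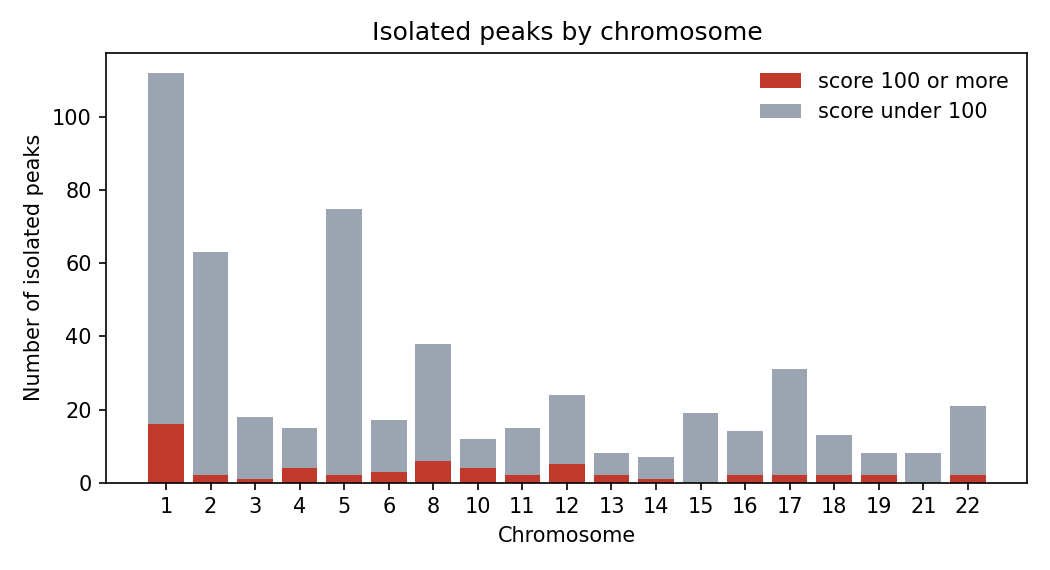
Number of isolated peaks (y axis) on each of the 19 chromosomes (x axis), with those of score 100 or more in red and those under 100 in grey. Chromosomes 1, 5 and 2 hold the most, and chromosomes 15 and 21 have no red part.

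Within chromosomes, isolated peaks gathered on 1 side in some cases. On chromosome 1, 85 of 112 lay above 150 Mb (0.857 per Mb, against 0.18 below), with 12 of its 16 candidates. On chromosome 17, 26 of 31 lay above 50 Mb (0.836 per Mb, against 0.1 below), but its 2 candidates were 1 on each side. Fewer lay at the high end of chromosomes 4 and 6, with 4 of 15 and 2 of 17 above 100 Mb. On chromosome 5 the values above and below 90 Mb were 0.477 and 0.367 per Mb. All of these boundaries were picked with the positions in view. Other peaks were not counted on each side, so these values do not show whether isolated peaks gathered there more than the rest of the list. In windows of 10 Mb, the fullest were chromosome 1 from 190 to 200 Mb and from 230 to 240 Mb, with 12 isolated peaks each. The first held no candidate and the second held 4.

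Isolated peaks of the excluded chromosomes were found by the same distance, and chromosome Y had 0. On chromosome 7, 2 of 169 scored 100 or more (1.18%, 0.144 to 4.21%), a lower share than the 11.2% of this set. On chromosome 9 it was 12 of 33 (36.4%, 20.4 to 54.9%), a higher one. Chromosome 20 had 2 of 57 and chromosome X had 1 of 31, with intervals that overlap that of this set. Their median implied counts were nearly alike, at 15 reads on chromosomes 7, 20 and X, 17 on chromosome 9 and 15 in this set. At least 6 times the common rate was reached by 0 of 169 on chromosome 7, which allows a share of up to 2.16%, and 8 of 33 on chromosome 9.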

How the data were processed

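The authors deposited 1 peak list, with chromosome, start, end, name and score, for the SOX4 library. Per the submitters' processing notes, Bowtie 0.12.7, MACS and hg19 were used. Not given in the sources at hand are the version and settings of MACS, the treatment of duplicate reads and the use of the GFP library. Starts were raised by 1 to count positions from 1, and distance is a start minus the previous end. The deposited score was matched to a Poisson tail by a search over 1 rate, with the nearest whole count per peak. On simulated data 932 of 932 counts were recovered at 1 rate, while with a rate of each peak's own only 16 of 906 peaks came within 0.05. The isolation step recovered 42 of 42 planted peaks with 0 others. The depth of the libraries is unknown. Shares have exact Clopper-Pearson 95% intervals.

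The members, the lists and the thresholds were chosen with earlier results of these data known. Peaks are named if they scored 1000 or more, led their chromosome, were among the 10 highest for their width or the 10 farthest from another peak, or were among the 3 on either side of a threshold. The match of the score to counts was found after the data were seen. The software was SciPy 1.17.1, NumPy 2.4.6, matplotlib 3.10.9 and pandas 2.3.3 under Python 3.11.15.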

Additional observations from a re-analysis of the deposited data

How the results depend on the processing

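Of 36 alternative values, 30 stayed close to the reported one (counts within 1.5 times, shares and medians within their 95% intervals). With an isolation distance of 1 Mb the set fell from 518 to 219 peaks and the candidates from 58 to 23. A score minimum of 200 left 25. Among peaks at or above the list's median score (79.1), with isolation found anew, 116 were isolated, with a median score of 112 and a median width of 934 bp. The first 2 settings only narrow the limits, while the last drops weak peaks both as members and as neighbours, and the part of each was not tested. With only neighbours of 100 or more counted, 84 peaks of 100 or more were isolated, the 58 candidates and 26 more. Ranked only among isolated peaks of like width, 26 of the 58 candidates scored above 90%, rather than 35. That value counts as close under the limit of 1.5 times. The rate fitted on the isolated peaks alone was added after the data were seen. The planned look at motifs and promoters was not run, since it needs hg19 sequence. No paired analysis was possible because there was only 1 library for SOX4 and 1 for GFP.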
